A study of Mus musculus with 4 samples.

Results

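The interneuron neuropeptide genes Sst, Vip, Npy, Cck, Crh and Tac2 were followed as a set of 6 among the 31053 genes counted in single-nucleus RNA-seq of mouse brain. The set is a list of names without a threshold on any measured value, and all 6 genes had UMIs (unique molecular identifiers, each standing for 1 captured RNA molecule) in all 4 libraries. The brains came from male C57BL/6J mice, 8 weeks old, injected at the cisterna magna with adeno-associated virus (AAV), which the methods place at an age of 4 weeks. AAV-VEGF-C carried full-length mouse VEGF-C, a growth factor of lymphatic vessels, and AAV-CTRL carried the extracellular domains of VEGFR-3 that do not bind ligand, fused to an immunoglobulin part. Nuclei of 5 pooled brains per AAV group were sequenced as 1 library labelled cortical and 1 labelled striatal for each AAV, which gave 4 groups. Each group is therefore 1 library, without a replicate, and the 2 region labels of an AAV group share their mice. No test between groups was made, and the 95% intervals below cover counting error only.

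Each of the 6 genes encodes a precursor that is cut into a secreted peptide and stored in dense-core granules. Inhibitory neurons that make such a peptide release it beside the transmitter GABA. In the cortex, somatostatin (Sst) marks interneurons that contact distal dendrites, vasoactive intestinal peptide (Vip) marks interneurons that mostly inhibit other interneurons, and neuropeptide Y (Npy) is known from neurogliaform cells and from part of the Sst cells. Cholecystokinin (Cck) is made by a class of basket cells and also by many excitatory neurons, corticotropin-releasing hormone (Crh) is the stress hormone of the hypothalamus that some interneurons express too, and Tac2 encodes neurokinin B, a tachykinin peptide known from the habenula and hypothalamus.

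Sst is the gene in which the cAMP response element, the palindrome TGACGTCA, was first described, so the promoter windows of the members were searched for it and for its shorter forms TGACGT and TGACG, on both strands, with each shorter form contained in the longer one. The RefSeq table (GRCm38.p6) held 5 of the 6 members, all but Crh, and the search covered the 250 bases before each start. The palindrome was found in Sst, TGACGT in Vip, and TGACG, read on the other strand as CGTCA, in Cck. These 30-base stretches show the matches in capitals, 5′ to 3′ on the strand of the gene, at chr16:23890874-23890903 (minus strand), chr10:5639127-5639156 (plus strand) and chr9:121495724-121495753 (minus strand).
Sst: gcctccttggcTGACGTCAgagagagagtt
Vip: ggatcactactgTGACGTctttcggggagc
Cck: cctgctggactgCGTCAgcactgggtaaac
The match began 48 bases before the RefSeq start in Sst, 79 in Vip and 47 in Cck. The GENCODE M21 model of Sst starts farther upstream, so that by that annotation the Sst match lies inside the gene. Of 32851 promoter windows of the same length, 1.55% held TGACGTCA, 6.47% held TGACGT and 17.8% held TGACG, and neither the Npy nor the Tac2 window held any of the 3. A match is a description of the letters in a window and not a measured site.

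The whole windows of Vip, Cck and Npy are printed because Vip differed most between region labels, Cck is also known from excitatory neurons, and Npy, highest in a class that is named for another gene, had none of the 3 forms. They lie at chr10:5638968-5639217 (plus strand), chr9:121495695-121495944 (minus strand) and chr6:49822460-49822709 (plus strand), with the matches in capitals and none in Npy.
Vip: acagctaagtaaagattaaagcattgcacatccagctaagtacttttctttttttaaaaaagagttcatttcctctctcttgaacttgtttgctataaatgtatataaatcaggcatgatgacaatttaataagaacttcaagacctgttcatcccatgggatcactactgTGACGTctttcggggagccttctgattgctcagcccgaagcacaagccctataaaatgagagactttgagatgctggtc
Cck: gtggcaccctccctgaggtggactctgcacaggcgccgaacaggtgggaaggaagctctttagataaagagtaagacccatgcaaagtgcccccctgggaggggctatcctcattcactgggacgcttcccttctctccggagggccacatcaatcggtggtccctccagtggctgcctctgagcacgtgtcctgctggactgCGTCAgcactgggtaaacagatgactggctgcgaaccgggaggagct
Npy: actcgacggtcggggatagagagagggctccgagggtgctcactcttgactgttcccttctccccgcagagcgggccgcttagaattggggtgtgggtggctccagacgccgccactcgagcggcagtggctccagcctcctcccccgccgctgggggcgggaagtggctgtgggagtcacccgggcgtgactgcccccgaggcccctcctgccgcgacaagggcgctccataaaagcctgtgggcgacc
In the GRCm38 annotation (GENCODE M21) no other gene overlaps any of the 6 members. Sst (ENSMUSG00000004366) lies on chromosome 16 at 23889573 to 23890958, Vip (ENSMUSG00000019772) on chromosome 10 at 5639218 to 5647617 and Npy (ENSMUSG00000029819) on chromosome 6 at 49822710 to 49829507. Cck (ENSMUSG00000032532) lies on chromosome 9 at 121489824 to 121495694, Crh (ENSMUSG00000049796) on chromosome 3 at 19693401 to 19695396 and Tac2 (ENSMUSG00000025400) on chromosome 10 at 127724478 to 127731768.

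After removal of doublets 72862 of 78728 nuclei were kept, from 16205 to 21321 per library, with a median of 2125 to 2650 UMIs per nucleus. Pairs of libraries shared 76 to 118 cell barcodes, at most 0.658% of the smaller library. The region labels were checked against their defining markers. The 9 striatal projection neuron markers summed to 2337 and 2375 CPM (UMIs of a gene per 1000000 UMIs of the library or class) under the cortex label and to 1175 and 1150 CPM under the striatum label, and none of the 9 was higher under the striatum label. All 8 thalamic markers were higher there, with sums of 3471 and 3662 CPM against 1798 and 1787 CPM. The 10 cortical excitatory markers went with the labels, at 1833 and 1850 CPM under the cortex label and 1051 and 1044 CPM under the striatum label, where 2 and 3 of them were higher. The label striatum is therefore kept below only as the submitters' label. Vegfc RNA, summed over all kept nuclei, stood at 11.8 to 13.0 CPM in all 4 libraries. The paper reports that AAV-mVEGF-C raised VEGF-C protein in CSF and brain extracts and Vegfc in smooth muscle cells, and this sum measures neither. In a library summed over nuclei, fewer cells of a type and less RNA per cell cannot be told apart.

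Under the cortex label Sst, Vip, Npy and Cck were all more abundant than under the striatum label, Tac2 was less abundant, and Crh differed least. Sst, the precursor of the inhibitory peptide somatostatin, was at 157 CPM (154 to 160) in cortex AAV-CTRL, 151 (148 to 154) in cortex AAV-VEGF-C, 71.7 (69.7 to 73.8) in striatum AAV-CTRL and 92.7 CPM (90.3 to 95.1) in striatum AAV-VEGF-C. The 2 cortex libraries were higher than both striatum libraries, and the striatum libraries differed from each other by more than their intervals. Vip, whose peptide relaxes smooth muscle and excites many neurons, was at 29.8 CPM (28.4 to 31.3) and 35.0 CPM (33.6 to 36.4) under the cortex label, against 3.22 CPM (2.80 to 3.69) and 3.10 CPM (2.68 to 3.58) under the striatum label, in the order AAV-CTRL and AAV-VEGF-C that is kept from here on. Npy, a peptide that promotes feeding and dampens release of transmitters, was at 95.4 CPM (92.9 to 98.0) and 100.4 CPM (98.0 to 102.7) under the cortex label and at 17.2 CPM (16.2 to 18.2) and 16.3 CPM (15.3 to 17.3) under the striatum label. For Vip and Npy the 2 striatum libraries lay within each other's intervals.

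Cck, the precursor of cholecystokinin, was at 333 CPM (329 to 338) and 399 CPM (395 to 404) under the cortex label and at 107 CPM (105 to 110) and 124 CPM (122 to 127) under the striatum label, so that AAV-VEGF-C was the higher library under both labels. Crh, the precursor of corticotropin-releasing hormone, rested on 220 to 377 UMIs per library and was at 5.49 CPM (4.90 to 6.13), 5.38 CPM (4.85 to 5.95), 3.75 CPM (3.30 to 4.25) and 3.56 CPM (3.10 to 4.06) in the 4 libraries. Tac2 was at 5.83 CPM (5.23 to 6.49) and 6.02 CPM (5.46 to 6.63) under the cortex label and at 14.5 CPM (13.5 to 15.4) and 21.1 CPM (19.9 to 22.2) under the striatum label. The interval of Tac2 in striatum AAV-VEGF-C lay above that of every other library.

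**Figure D1:**
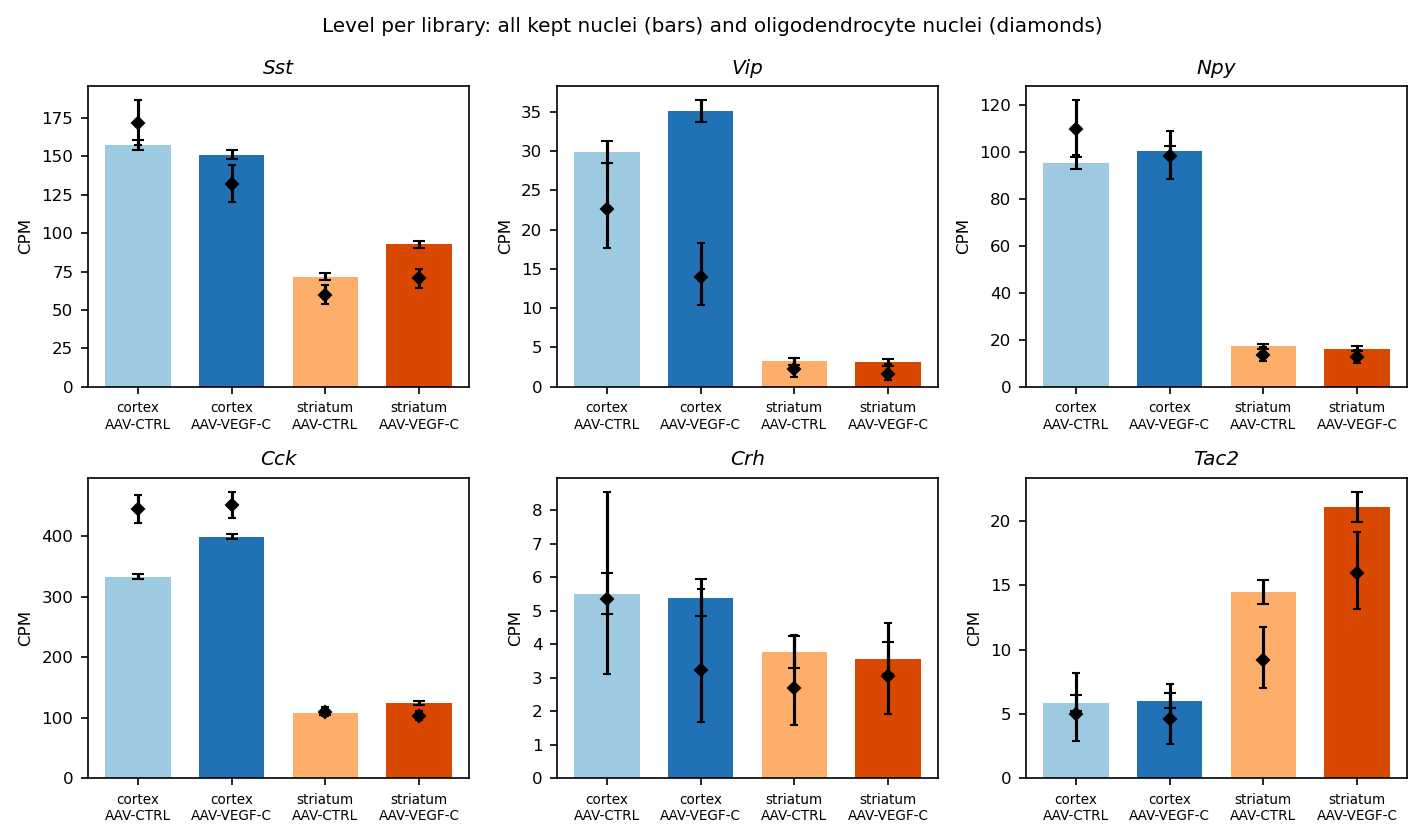
Level of each of the 6 genes in each library, in CPM over all kept nuclei (bars, axis from 0) with the exact Poisson 95% interval (counting error only); black diamonds give the level in oligodendrocyte nuclei of the same library. Sst, Vip, Npy and Cck are higher in both cortex libraries and Tac2 in both striatum libraries, and the oligodendrocyte diamonds of Sst, Npy and Cck in cortex AAV-CTRL, at 171, 110 and 445 CPM, lie above the bars.

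The region contrast was read as the log2 ratio of the striatum label over the cortex label, separately for the 2 AAV groups, and each library enters 1 such ratio and 1 of the AAV ratios given later. In AAV-CTRL 5 of the 6 genes were past a 2-fold difference, 1 higher and 4 lower, where 12.8% of the genes tested were past it, 8.43% higher and 4.35% lower. In AAV-VEGF-C 4 of 6 were past it, 1 higher and 3 lower, where the background was 13.1%, with 8.45% higher and 4.66% lower. The median of the 6 genes was −1.38 and −1.19, against 0.18 and 0.20 over all genes tested.

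Vip differed most, with a log2 ratio of −3.21 in AAV-CTRL, 9.25-fold lower under the striatum label (8.02 to 10.7), and −3.50 in AAV-VEGF-C, 11.3-fold lower (9.74 to 13.1). Npy was 5.55-fold lower and 6.16-fold lower (log2 ratios −2.47 and −2.62), and Cck 3.10-fold lower and 3.21-fold lower (−1.63 and −1.68). Sst was 2.19-fold lower in AAV-CTRL (log2 ratio −1.13, −1.18 to −1.08) and 1.63-fold lower in AAV-VEGF-C (−0.70, −0.75 to −0.66), and it was the gene that passed 2-fold in only 1 of the 2 contrasts. Tac2 went the other way, 2.48-fold higher in AAV-CTRL (2.19 to 2.81) and 3.50-fold higher in AAV-VEGF-C (3.13 to 3.91). Crh was below the fold in both, at −0.55 (−0.79 to −0.31) and −0.60 (−0.84 to −0.35). The level in oligodendrocytes, which stands for background here, differed between the labels in the same direction. In AAV-CTRL it went from 110 to 13.7 CPM for Npy, from 445 to 110.2 for Cck, from 171 to 59.9 for Sst, from 22.6 to 2.25 for Vip and from 5.02 to 9.16 for Tac2. Its part in the region ratios was not tested. The named interneuron classes differed in size as well. Sst-lineage nuclei were 243 of 16205 and 279 of 18915 cortex nuclei (1.48%, 1.31 to 1.66, in the latter) and 0.0938% and 0.0853% of striatum nuclei. Vip-lineage nuclei were 195 and 247 of the same cortex nuclei and 0.113% and 0.0304% of striatum nuclei.

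To place the genes by neuron type, neurons were clustered with the 6 members left out and the 67 clusters were named from markers other than the gene concerned. The Sst-lineage class held 243, 279, 20 and 14 nuclei in the 4 libraries and had all 7 of its markers raised, among them the glutamate receptor subunit gene Grin3a in 87.8% of nuclei. The Vip-lineage class held 195, 247, 24 and 5 nuclei, with Adarb2 in 99.8% and the serotonin receptor gene Htr3a 5.00 log2 units above other nuclei. Its marker Calb2 was lower than in other nuclei, at −0.53. Its markers Nr2f2, raised by 0.88, and Crispld2, found in 6.37% of nuclei, also missed the limits set for a marker. The Lamp5-lineage class, named from genes of neurogliaform-type cells such as Reln, Kit and Ndnf, held 134, 154, 18 and 10 nuclei. Its marker Eya4 missed the limits, at 0.62 and in 6.33% of nuclei. Clusters that met no interneuron rule were pooled by their transmitter genes, so that Slc17a7-led means excitatory neurons led by the vesicular glutamate transporter of cortical neurons, and Gad-led means inhibitory neurons of no named lineage, which made up 32.3% and 35.1% of striatum nuclei but 3.92% and 3.37% of cortex nuclei.

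Oligodendrocytes, which are not known to make these peptides, gave the background of each library. Their median depth was 1642, 1648, 1687 and 2053 UMIs, against 4855, 4754, 5198 and 5300 UMIs in the Sst-lineage class and 3619, 3804, 4351 and 4123 in the Vip-lineage class. Shares of nuclei with a UMI are therefore given as deposited and after each nucleus was thinned to 1000 UMIs. Comparisons in CPM and of thinned shares take the background to grow with depth, which was not tested. A level near or below that of oligodendrocytes therefore does not show that a deeper class lacks the gene.

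Sst was concentrated in the Sst-lineage class in every library. Its level there was 3203 CPM (3103 to 3305) in cortex AAV-CTRL and 3477 CPM (3380 to 3576) in cortex AAV-VEGF-C, and 95.9% (92.6 to 98.0) and 95.7% (92.6 to 97.8) of the nuclei held a UMI. In the few such nuclei under the striatum label it was 2659 CPM (2356 to 2991) in 20 nuclei and 5850 CPM (5300 to 6443) in 14. At 1000 UMIs per nucleus the share with Sst was 78.6% to 80.7% in all 4 libraries. Oligodendrocytes stood at 171, 132, 59.9 and 70.5 CPM, with Sst in 20.8%, 17.1%, 9.70% and 13.4% of nuclei, and in 13.7%, 10.7%, 6.04% and 6.83% after thinning. The Sst-lineage level was thus 18.7, 26.4, 44.4 and 83.0 times the oligodendrocyte level. With a stricter limit of 5 UMIs, set after the values were seen, Sst was found in 77.0% and 77.8% of cortical Sst-lineage nuclei and in 0.167% and 0.335% of oligodendrocytes.

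The class that names Sst did not hold most of its UMIs. Sst-lineage nuclei carried 42.6% and 46.2% of the Sst UMIs under the cortex label and 5.86% and 7.20% under the striatum label, where Gad-led neurons carried 56.1% and 61.0%. The level in Gad-led neurons was 105 and 141 CPM there, 1.75 and 2.00 times that of oligodendrocytes, while under the cortex label it was 134 and 199 CPM, 0.783 and 1.51 times. Cortical Vip-lineage (124 and 60.4 CPM), Lamp5-lineage (78.3 and 52.4 CPM) and Slc17a7-led nuclei (68.4 and 63.4 CPM) were below the oligodendrocyte level of their library. As pooled classes they were not set apart from background by this measure. The Slc17a7-led class was uneven, and its cluster led by Nrgn, Tbr1 and Egr1 held Sst at 317 CPM over all libraries, in 21.3% of nuclei. Among the neuronal clusters it also stood at rank 4 for Vip, 5 for Npy, 2 for Cck and 5 for Crh. The part of background and depth in its levels was not tested. Of the Gad-led clusters, 1 stood out for Sst: its leading genes were Frem3, Kcnmb2, Colq and Six3, its nuclei were mostly under the striatum label (116 and 110 of 263), and it held Sst at 491 and 556 CPM in the 2 striatum libraries, in 65.5% and 64.5% of nuclei, or 34.5% and 32.7% after thinning. Another, led by the transcription factor genes Gbx1 and Lhx8, was at 227 CPM, and the subcortical GABAergic class was at 174 and 245 CPM under the striatum label.

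Most Vip UMIs under the cortex label lay in the Vip-lineage class. The level was at 1447 CPM (1364 to 1533) and 1670 CPM (1592 to 1750) in cortical Vip-lineage nuclei, 64.0 and 119 times the oligodendrocyte level of 22.6 and 14.0 CPM. A UMI was found in 64.6% (57.5 to 71.3) and 64.4% (58.1 to 70.3) of these nuclei, in 53.1% and 55.5% after thinning, and in 2.78% and 2.25% of oligodendrocytes. Over all libraries the class was at 1477 CPM and the next interneuron class, the Lamp5 lineage, at 10.4 CPM. The class held 65.5% and 71.1% of the Vip UMIs under the cortex label.

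Under the striatum label the Vip-lineage class was smaller and lower. Vip was there at 237 CPM (156 to 345) in 24 nuclei and at 184 CPM (59.7 to 429) in 5, with a UMI in 20.8% (7.13 to 42.2) and 20% (0.505 to 71.6) of them. Both levels were below the cortical ones by more than the intervals, while the share in 5 nuclei was not. The levels rest on 27 and 5 UMIs, the latter all from a single nucleus. Their intervals cover the counting of UMIs and not the spread between nuclei, so they cannot place the class as a whole. Gad-led neurons carried 46.0% and 62.5% of the Vip UMIs there, at 3.86 and 4.82 CPM. A Gad-led cluster led by Frmd7, Lgr5, Trh and Egf, with 75 of its nuclei in striatum AAV-CTRL, held Vip at 118 CPM in 10.1% of nuclei and Crh at 80.0 CPM in 7.07%, at a median depth of 2086 UMIs.

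Under the cortex label Npy was highest in the Lamp5-lineage class and next in the Sst-lineage class. In Lamp5-lineage nuclei it was at 1886 CPM (1777 to 2001) and 2088 CPM (1985 to 2196) under the cortex label, with a UMI in 71.6% (63.2 to 79.1) and 73.4% (65.7 to 80.2) of nuclei and in 54.9% and 56.5% after thinning. In Sst-lineage nuclei it was at 773 CPM (724 to 824) and 989 CPM (937 to 1042), in 63.8% and 62.4% of nuclei and in 34.6% and 35.5% after thinning. The oligodendrocyte background was 110 and 98.2 CPM, in 15.2% and 12.6% of nuclei, or 8.87% and 7.59% after thinning. These 2 classes thus lay 17.2 and 21.3 times, and 7.04 and 10.1 times, above background.

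The Lamp5-lineage class itself was uneven for Npy. Its cluster led by Kit, Reln and Ndnf held Npy at 2288 CPM in 75.8% of nuclei, and its cluster led by Hapln1, Pde11a and Hcrtr2 at 280 CPM in 39.1%. Vip-lineage nuclei were at 212 and 264 CPM under the cortex label, with Npy in 13.9% and 13.4% of thinned nuclei, and Pvalb-lineage nuclei at 105 and 172 CPM, with 10.3% and 10.4%, close to the oligodendrocyte shares. Under the striatum label 14 Sst-lineage nuclei of AAV-VEGF-C were at 2366 CPM (2020 to 2753) and 20 of AAV-CTRL at 708 CPM (556 to 889), while Npy in Lamp5-lineage nuclei was at 439 CPM (301 to 620) in AAV-CTRL and 77.1 CPM (21.0 to 198) in AAV-VEGF-C, so that the order of the 2 classes was turned. Npy was found in 0 of 24 and 0 of 5 Vip-lineage nuclei there, which allows up to 12.5% and 60% of nuclei with a UMI at 3 counts, and up to 14.2% and 52.2% by the exact binomial interval.

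Cck was found in most oligodendrocytes under the cortex label. Oligodendrocytes of the cortex libraries were at 445 and 451 CPM, with Cck in 51.9% and 52.7% of nuclei and in 34.2% and 36.4% after thinning. Slc17a7-led nuclei, which carried 60.7% and 64.3% of the Cck UMIs, were at 357 CPM (351 to 364) and 451 CPM (444 to 457), with 33.0% and 36.2% after thinning. At equal depth the share of pooled cortical excitatory neurons with Cck was therefore not above that of oligodendrocytes. Their share of 71.0% and 75.2% as deposited goes with a median depth of 4493 and 4590 UMIs. Thinning removes background UMIs and a nucleus's own UMIs alike, so the thinned shares cannot show how much Cck these neurons made. With the stricter limit of 5 UMIs, Cck was found in 7.03% and 13.3% of Slc17a7-led nuclei and in 0.444% and 0.717% of oligodendrocytes, without equal depth.

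Vip-lineage nuclei were the named class with the highest Cck level, at 641 CPM (586 to 700) and 940 CPM (882 to 1000) under the cortex label, in 70.8% (63.8 to 77.0) and 68.4% (62.2 to 74.2) of nuclei. After thinning the shares were 36.1% and 39.3%, near those of oligodendrocytes, while 17.4% and 24.3% of the nuclei had 5 UMIs or more. Sst-lineage (150.1 and 160.4 CPM) and Lamp5-lineage nuclei (214.5 and 299 CPM) were below the oligodendrocyte level. Among the excitatory clusters the highest over all libraries was led by Nrgn, Tbr1 and Egr1, at 777 CPM in 59.6% of nuclei as deposited. That is the cluster described above for Sst. Its share at equal depth is not given here, and the part of background in its level was not tested. One led by Rspo2, Slc26a4 and Bmp3 stood at 527 and 705 CPM in the cortex libraries, with 42.7% and 45.8% of thinned nuclei, above the oligodendrocyte shares. Thalamic-type neurons under the striatum label were at 195 and 277 CPM, with Cck in 16.8% and 21.6% of thinned nuclei, against 10.8% and 10.3% of oligodendrocytes there.

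Crh and Tac2, which rested on few UMIs in the cortex libraries, stood highest there in the Vip-lineage class. Crh was at 166 CPM (138 to 197) and 153 CPM (130 to 179) in cortical Vip-lineage nuclei, 31.1 and 47.5 times the oligodendrocyte level of 5.34 and 3.23 CPM. It was found in 26.7% (20.6 to 33.5) and 27.9% (22.4 to 33.98) of these nuclei and in 0.888% and 0.574% of oligodendrocytes, and the class held 40.8% and 42.4% of its UMIs. Sst-lineage nuclei were next, at 16.5 and 17.8 CPM in 5.35% and 6.45% of nuclei. Under the striatum label Gad-led neurons held 61.3% and 60.9% of the Crh UMIs, at 5.99 and 5.39 CPM.

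Tac2 had 2 places. In cortical Vip-lineage nuclei it was at 190 CPM (161 to 223) and 205 CPM (178 to 234), in 28.2% (22.0 to 35.1) and 30.8% (25.1 to 36.9) of nuclei, 37.8 and 44.8 times the oligodendrocyte level. Under the striatum label it was highest in the medial habenula-type class; the medial habenula is a small cell group of the epithalamus, outside the striatum. This class had 202 and 182 nuclei there against 1 and 0 under the cortex label. Tac2 stood at 355 CPM (316 to 398) and 482 CPM (435 to 533) in those nuclei, in 53.0% (45.8 to 60.01) and 58.2% (50.7 to 65.5), or 28.4% and 26.0% after thinning, while the oligodendrocytes were at 9.16 and 15.95 CPM. The class held 31.1% and 29.6% of the Tac2 UMIs of the striatum libraries, and Gad-led neurons, at 13.5 and 22.5 CPM, held 35.8% and 42.9%.

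**Figure D2:**
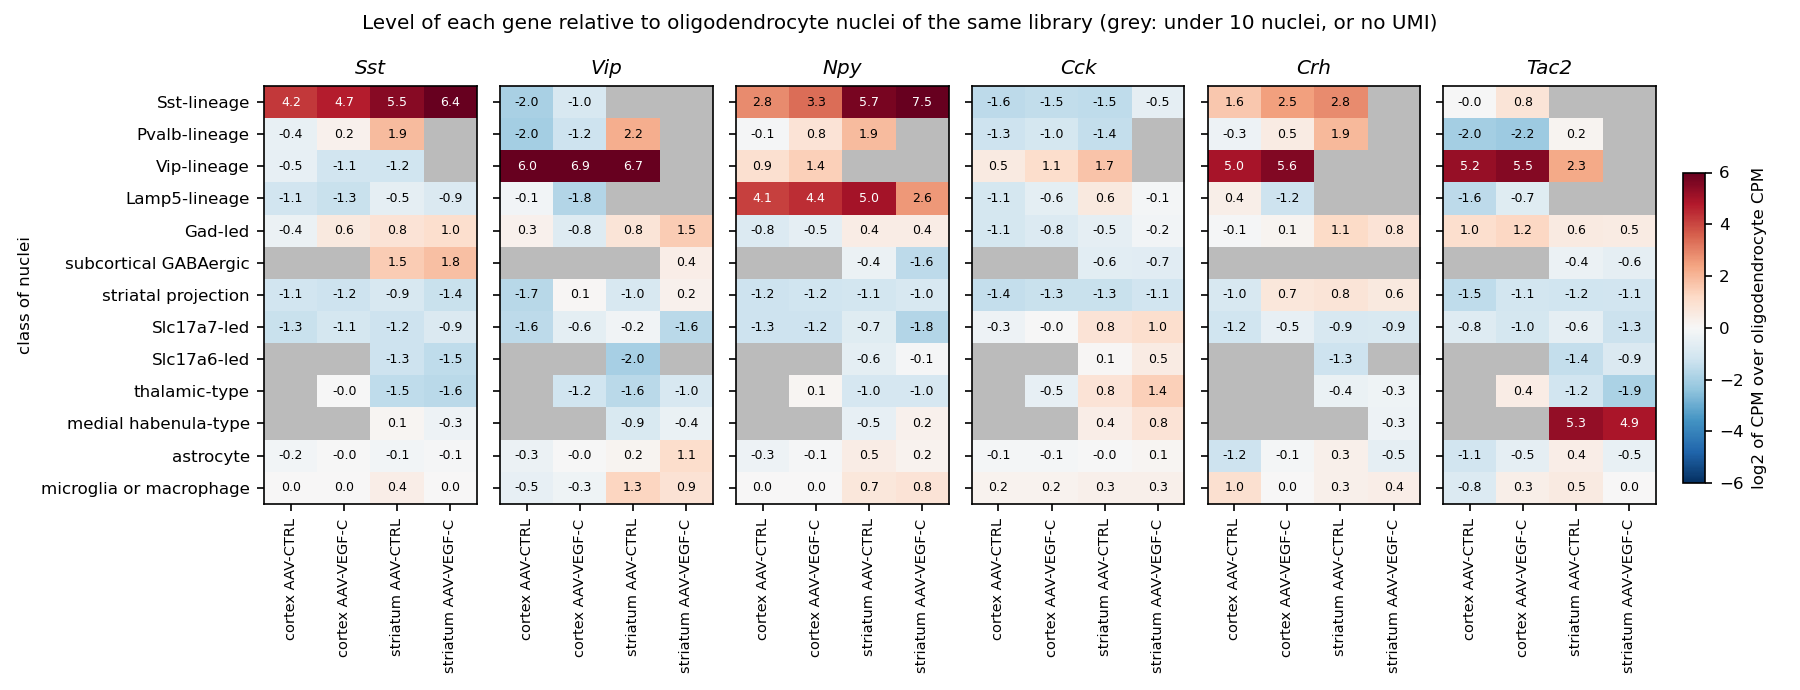
Heat map of each gene's level by nucleus class and library, as log2 of its CPM over the oligodendrocyte CPM of the same library, with the value printed in each cell and the colour scale ending at ±6; grey cells have fewer than 10 nuclei or no UMI. Sst stands highest in Sst-lineage nuclei, Vip and Crh in Vip-lineage nuclei, Npy in cortical Lamp5-lineage nuclei and Tac2 in Vip-lineage and medial habenula-type nuclei, while Cck is near 0 in cortical Slc17a7-led nuclei.

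AAV-VEGF-C and AAV-CTRL were compared within each region label. None of the 6 genes passed a 1.5-fold difference under either label, where 2.43% of the genes tested passed it under the cortex label and 4.38% under the striatum label. The median log2 ratio of the 6 genes was 0.06 and 0.08, against −0.01 and 0.00 over all genes tested.

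Under the cortex label Cck was higher with AAV-VEGF-C by 0.26 on the log2 scale (0.23 to 0.29) and Vip by 0.23 (0.14 to 0.32). Npy differed by 0.073 (0.02 to 0.12) and Sst by −0.058 (−0.10 to −0.02), and the intervals of Crh (−0.25 to 0.19) and Tac2 (−0.16 to 0.26) included 0. Under the striatum label Tac2 had the largest ratio, 0.54 (0.42 to 0.67) or 1.46-fold (1.34 to 1.59), followed by Sst at 0.37 (0.31 to 0.43) and Cck at 0.21 (0.17 to 0.26). Vip (−0.34 to 0.23), Npy (−0.20 to 0.05) and Crh (−0.35 to 0.19) had intervals that included 0. The oligodendrocyte background moved as well: for Tac2 its ratio under the striatum label was 0.80 (0.34 to 1.27), for Sst 0.23 (0.04 to 0.43) there and −0.38 (−0.56 to −0.20) under the cortex label, and the median depth was 2125 against 2540 UMIs in the 2 striatum libraries. Thinned to equal depth, Tac2 was at 0.37. The part of background and depth in these ratios was not tested.

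Within cortical classes the genes differed little for their own class. Sst differed by 0.12 (0.06 to 0.18) in Sst-lineage nuclei, Vip by 0.21 (0.10 to 0.32) in Vip-lineage nuclei and Npy by 0.15 (0.03 to 0.26) in Lamp5-lineage nuclei. Crh (−0.46 to 0.23) and Tac2 (−0.20 to 0.42) in Vip-lineage nuclei had intervals that included 0. Cck was higher with AAV-VEGF-C in Vip-lineage nuclei by 0.55 (0.40 to 0.71), in Lamp5-lineage nuclei by 0.48 (0.16 to 0.81) and in Slc17a7-led nuclei by 0.34 (0.30 to 0.37), and by 0.24 in both Pvalb-lineage (0.027 to 0.46) and Gad-led nuclei (0.079 to 0.41). The interval of Cck included 0 in Sst-lineage (−0.19 to 0.39), striatal projection (−0.0011 to 0.25) and neuroblast nuclei (−0.51 to 0.37), and in oligodendrocytes it differed by 0.020 (−0.083 to 0.12). Over all classes 14 of 66 pairs of gene and class with at least 30 UMIs passed 1.5-fold, 7 higher and 7 lower. No share over all genes was computed for that total, so it cannot be read as many or few. Of these pairs 0 of 4 passed in Sst-lineage nuclei (background 9.37%), 1 of 6 in Vip-lineage nuclei (11.6%), 0 of 3 in Lamp5-lineage nuclei (13.1%), 1 of 3 in Pvalb-lineage nuclei (8.68%), 0 of 6 in Slc17a7-led nuclei (4.12%) and 1 of 5 in Gad-led nuclei (7.39%).

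In these 6 classes the genes that passed did so outside the class they name. Sst in Vip-lineage nuclei was lower with AAV-VEGF-C, by −1.03 (−1.52 to −0.56), from 97 against 63 UMIs, of which 1 nucleus of AAV-CTRL held 35. Npy in Pvalb-lineage nuclei was higher by 0.71 (0.44 to 0.98), from 171 against 343 UMIs, with 59 of them in 1 nucleus, and Vip in Gad-led nuclei was at −1.72, from 70 against 23 UMIs. In striatal projection nuclei under the cortex label Vip was higher by 1.08 (0.52 to 1.67), from 36 against 104 UMIs.

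Under the striatum label Tac2 was higher with AAV-VEGF-C in Gad-led nuclei by 0.74 (0.54 to 0.94) and in medial habenula-type nuclei by 0.44 (0.22 to 0.67), and Sst in Gad-led nuclei by 0.43 (0.35 to 0.50). The oligodendrocyte ratios of Tac2 and Sst under this label, given above, were also above 0, and their part was not tested. At equal depth Tac2 was found in 57 of 201 medial habenula-type nuclei of AAV-CTRL and in 47 of 181 of AAV-VEGF-C. Of the 6 genes 1 passed 1.5-fold in Gad-led nuclei (background 6.05%), 0 of 3 in medial habenula-type nuclei (12.7%), 2 of 4 in Slc17a7-led nuclei (8.89%), 0 of 2 in the subcortical GABAergic class (14.5%) and 0 of 5 in thalamic-type nuclei (6.25%), where Cck was at 0.50 (0.40 to 0.60). The 2 in Slc17a7-led nuclei were Sst, at 0.59 from 91 against 72 UMIs, and Npy, at −1.12 from 29 against 7 UMIs. Over all classes 16 of 70 pairs passed, 10 higher and 6 lower, again without a share over all genes for the total. Cck in cholinergic nuclei was at −2.06 (−2.83 to −1.35), from 78 against 21 UMIs, and Npy in mixed-transmitter nuclei at 1.29 (0.18 to 2.49), from 11 against 21. Sst in Sst-lineage nuclei was at 1.14 (0.91 to 1.36), Npy there at 1.74 (1.34 to 2.16), and Npy in Lamp5-lineage nuclei at −2.51, from 32 against 4 UMIs. The Sst-lineage and Lamp5-lineage ratios rest on 20 against 14 and on 18 against 10 nuclei, and no background over genes was computed at that depth.

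**Figure D3:**
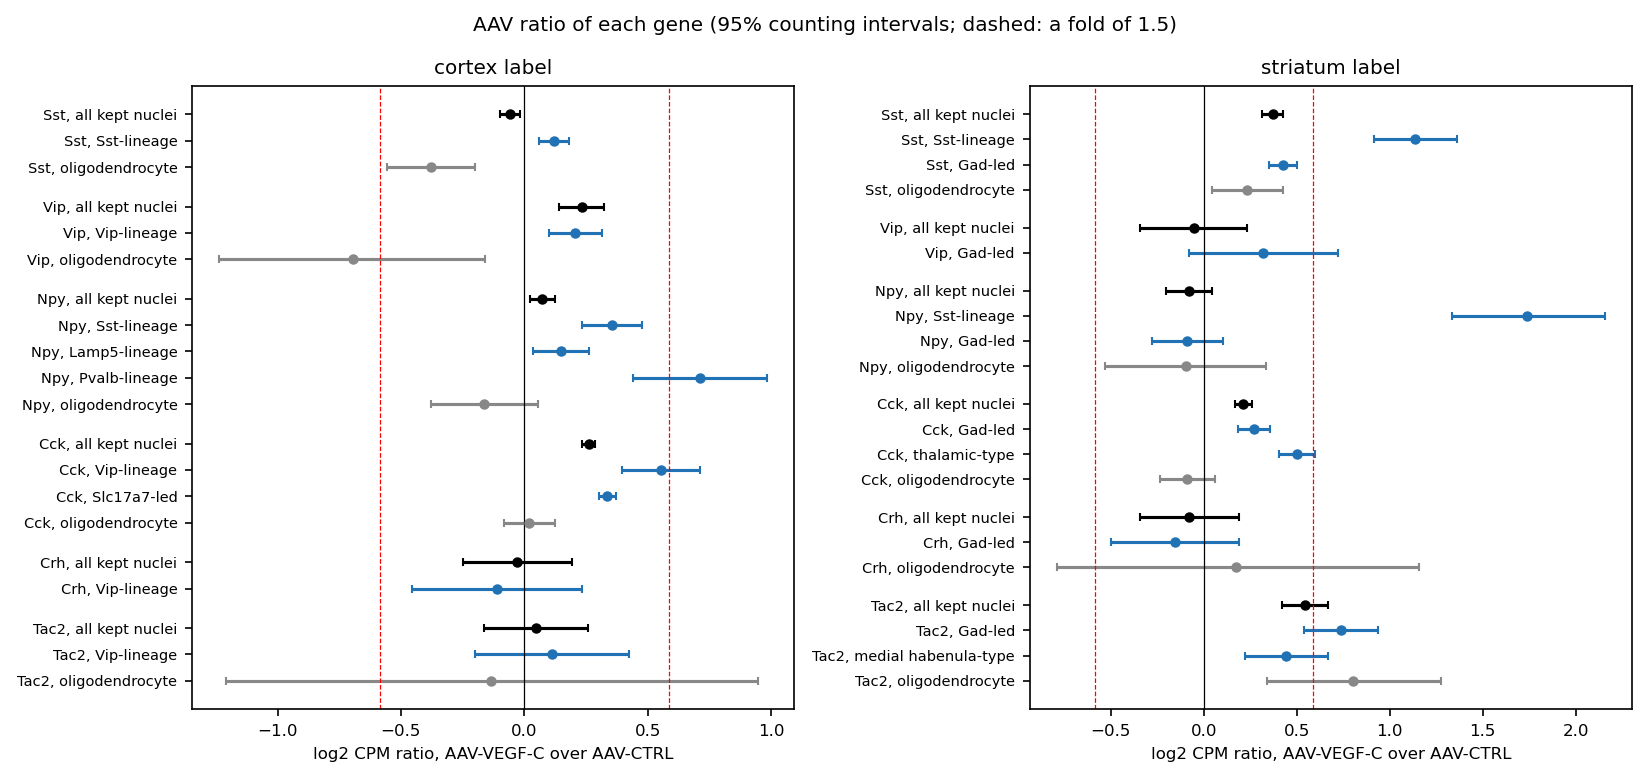
Log2 ratio of AAV-VEGF-C over AAV-CTRL for each gene with its 95% interval (counting error only), by region label: black for all kept nuclei, blue for the neuron class named, grey for oligodendrocytes; dashed lines mark a fold of 1.5. The black points lie inside the dashed lines for all 6 genes, and Tac2 under the striatum label, at 0.54, lies nearest to them.

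Co-detection was read within a class: the share of nuclei with a UMI of a second gene was compared between nuclei with and without the first, first as deposited and then at 1000 UMIs per nucleus. In cortical Sst-lineage nuclei almost every nucleus held Sst, so only 10 and 12 nuclei lacked it, and Npy was found in 64.4% and 62.9% of nuclei with Sst against 50% and 50% without. After thinning Npy was found in 39.8% of nuclei with Sst and 12.8% without in AAV-CTRL, a difference of 27.0 percentage points (13.0 to 36.8), and in 41.6% against 12.1% in AAV-VEGF-C, a difference of 29.6 points (17.0 to 38.5). The thinned nuclei without Sst were 47 and 58, most of which held Sst as deposited. The thinned contrast is thus of higher with lower Sst and not of presence with absence. The same comparison at equal depth also gave intervals above 0 in classes whose pooled Sst level was near background. The differences were 8.8 (6.0 to 12.1) and 6.8 points (4.3 to 9.9) in Slc17a7-led, 10.7 (2.7 to 22.9) and 8.1 (1.5 to 19.4) in Gad-led, and 12.2 (0.32 to 30.5) and 13.4 points (2.7 to 28.7) in Pvalb-lineage nuclei. In oligodendrocytes they were 4.9 (0.87 to 9.9) and 1.8 points (−1.6 to 6.5). The association of Npy with Sst was therefore not particular to the Sst-lineage class, and the differences between classes were not tested.

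In cortical Vip-lineage nuclei Crh and Tac2 were found more often with Vip and with each other. Crh was found in 34.9% of nuclei with Vip against 11.6% without in AAV-CTRL, a difference of 23.3 points (10.9 to 33.6), and in 36.5% against 12.5% in AAV-VEGF-C, a difference of 24.0 points (12.9 to 33.4). After thinning the shares were 20.4% against 5.5% and 16.1% against 7.3%. Tac2 was found in 35.7% of nuclei with Vip against 14.5% without, and in 40.9% against 12.5%. Tac2 was also found more often in nuclei with Crh, 48.1% against 21.0%, a difference of 27.1 points (12.2 to 41.6), and 50.7% against 23.0%, a difference of 27.7 points (14.4 to 40.4).

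Cck was found less often in nuclei with Vip. The shares were 65.1% against 81.2% in AAV-CTRL, a difference of −16.1 points (−27.5 to −2.8), and 62.3% against 79.5% in AAV-VEGF-C, a difference of −17.3 points (−27.8 to −5.3). Nuclei with Vip were shallower than those without, with medians of 3513 against 4108 and 3569 against 4994.5 UMIs. At 1000 UMIs the shares were 28.2% against 45.1% and 31.4% against 49.1%. For Cck with and without Tac2 the interval included 0 in both libraries, as deposited (−9.4 to 17.8 and −3.2 to 20.7 points) and thinned. With and without Crh it included 0 as deposited (−19.8 to 8.9 and −21.8 to 4.2) and, after thinning, in AAV-CTRL (−29.2 to 5.2) but not in AAV-VEGF-C (−34.4 to −3.5). For Npy with and without Vip the interval included 0 in both libraries, with 28.6% against 29.0% in AAV-CTRL and 26.4% against 35.2% in AAV-VEGF-C, where the interval of the difference ran from −20.9 to 2.9 points. With and without Tac2, Npy was found in 30.9% against 27.9% in AAV-CTRL (−10.2 to 17.8 points). In AAV-VEGF-C it was found in 43.4% against 23.4%, a difference of 20.0 points (7.4 to 32.6), or −1.6 to 23.9 points after thinning.

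In Sst-lineage nuclei Crh was found in 2.58% of nuclei with Npy against 10.2% without in AAV-CTRL, a difference of −7.6 points (−15.9 to −1.5), but in AAV-VEGF-C the difference of −4.9 points had an interval from −12.4 to 1.1. After thinning the interval included 0 in both, from −6.3 to 2.1 and from −5.6 to 1.8 points. In Lamp5-lineage nuclei the intervals for Cck with and without Npy included 0 in both libraries. In medial habenula-type nuclei of the striatum libraries Cck was found in 49.5% of nuclei with Tac2 against 18.9% without in AAV-CTRL, a difference of 30.6 points (17.6 to 42.0), and in 48.1% against 30.3% in AAV-VEGF-C, a difference of 17.9 points (3.4 to 31.0). After thinning that second difference had an interval from −2.0 to 23.7 points.

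**Figure D4:**
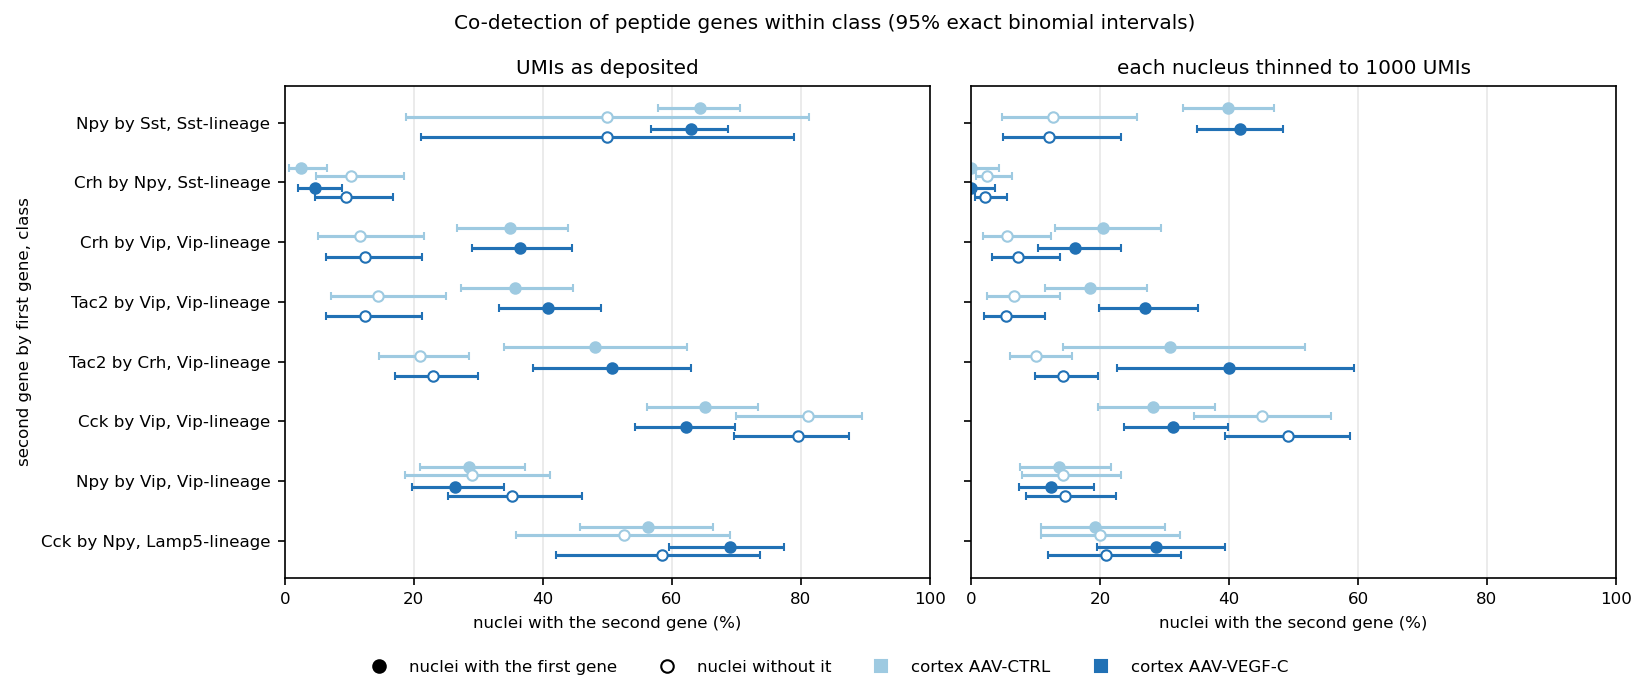
Share of nuclei (percent) with a second gene among nuclei with the first gene (filled) and without it (open), in the 2 cortex libraries, with exact 95% binomial intervals, as deposited on the left and thinned to 1000 UMIs on the right. Crh and Tac2 are more often found with Vip, and Cck less often, in both libraries at both depths.

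A set of other interneuron genes was read against the members in the same way, with shares given only as deposited. In Vip-lineage nuclei of cortex AAV-VEGF-C the median depth was 3569 UMIs with Vip against 4994.5 without. With Cck it was 4151 against 3399.5 UMIs without, and the part of depth in the shares below was not tested. In Sst-lineage nuclei with Npy, the somatostatin-related peptide gene Cort was found in 33.5% against 7.95% of nuclei without Npy in AAV-CTRL and in 38.5% against 8.57% in AAV-VEGF-C. Nos1, the neuronal nitric oxide synthase, was found in 24.5% against 11.4% and in 27.0% against 10.5%, and Chodl in 9.68% against 0 of 88 nuclei, which allows up to 3.41%, and in 9.20% against 1.90%. Nos1 and Chodl are known to mark long-range Npy cells. In Vip-lineage nuclei Reln, an extracellular matrix protein gene, was found less often with Vip, in 16.7% against 53.6%, a difference of −37.0 points (−49.5 to −23.1), and in 17.0% against 63.6%, a difference of −46.7 points (−57.2 to −34.3). Calb2, the calretinin gene, was found in 12.7% against 7.25% and in 13.8% against 6.82%. With Cck the shares went the other way, with Reln in 34.1% against 19.3% and 39.1% against 21.8%, and Calb2 in 8.70% against 15.8% and 7.69% against 19.2%. No intervals are given for the shares with Cck or for Calb2 with Vip, so this turn was not set apart from counting error.

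Counted together, 4 or more of the 6 genes were found in 19.5% and 19.4% of cortical Vip-lineage nuclei, and in 2.58% and 3.24% after thinning. The shares as deposited were 1.23% and 2.51% in Sst-lineage, 0.746% and 1.30% in Lamp5-lineage and 0.313% and 0.495% in Pvalb-lineage nuclei. Most Sst-lineage nuclei held 2 genes (45.7% and 43.4%) or 3 (35.8% and 35.5%). Of the oligodendrocytes in the same libraries 32.5% and 33.5% held none.

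The genes whose levels over the 67 neuronal clusters were most like each member were ranked by Pearson's r of log2(CPM + 1) among 12901 genes, as a description without a test, since clusters share libraries and some are of low depth. Vip was most like Htr3a (r = 0.68), Crh (0.68) and Ctxn1 (0.61), and Crh most like Vip (0.68), Htr3a (0.62) and Cort (0.60). For Npy they included Cort (0.75) and Rprml (0.67). Cck was most like Dkk3 (0.79), Bsn (0.76) and Zbtb18 (0.76). Sst, with Ddit3 (0.66), Ssr2 (0.64) and Anapc13 (0.63), and Tac2, with Lrrc9 (0.63), Slc5a7 (0.63) and mt-Nd6 (0.61), completed the ranking. Among the members themselves Vip and Crh were most alike (0.68) and Cck and Tac2 least (−0.05).

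The receptors of these peptides, the genes that process them and other interneuron genes were read as lists. Between AAV groups 0 of 15 receptor genes that could be tested passed 1.5-fold under the cortex label and 0 of 16 under the striatum label, as did 0 of 10 processing genes under both, where 2.43% and 4.38% of all genes tested passed; lists of this size are too short to set 0 apart from that. Of the other interneuron genes only Cort passed, under the striatum label, at −1.50 on the log2 scale (−2.07 to −0.96; 115 against 38 UMIs), and no list gene passed in the same direction under both labels.

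Between region labels the receptors went both ways, with 3 of 15 tested higher and 3 lower past 2-fold under the striatum label in AAV-CTRL (background 8.43% higher and 4.35% lower) and 4 and 4 of 16 in AAV-VEGF-C (8.45% and 4.66%). Vipr1 (log2 ratios −3.09 and −3.27), Cckbr (−2.27 and −2.75) and the Crh-binding protein gene Crhbp (−1.42 and −1.53) were lower, and Vipr2 (3.81 and 3.51), Cckar (4.25 and 3.81) and the neurokinin B receptor gene Tacr3 (1.80 and 2.06) were higher. The 2 Vip receptors and the 2 Cck receptors thus stood on opposite sides of the region contrast. By class, Npy1r was at 107 CPM in Vip-lineage nuclei, where it was found in 33.1%. Cckbr was found in 23.2% of Slc17a7-led nuclei, Vipr2 in 29.7% of thalamic-type nuclei, Sstr2 in 17.4% of medial habenula-type nuclei and Crhbp in 34.2% of Sst-lineage nuclei. Of the 10 processing genes 1 was higher and 1 lower in AAV-CTRL, and 2 were higher in AAV-VEGF-C, against the same background, with the granule protein gene Scg2 at 1.17 and 1.67. Of the 10 other interneuron genes 2 were higher and 2 lower in both, with Calb2 at 3.34 and 3.69 and Cort at −2.57 and −4.51.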

How the data were processed

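Nuclei of the 4 libraries (10x 3′ v3 chemistry) were read as UMI counts per gene and barcode, as the authors deposited them. The counts were made with Cell Ranger on mm10: the matrix headers name version 5.0.1 and the submitters' processing notes 5.1.1. The gene annotation and the handling of intronic reads are not given in the sources used here. The study's limit of 200 UMIs left all 78728 barcodes, as many as the study states (minimum 719). Groups came from the sample titles and AAV labels, with 1 library per group.

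Doublets were called with scrublet (scanpy 1.11.5, expected rate 8%), which marked 4.31% to 7.95% per library, and clusters with at least 40% called doublets were removed, leaving 5.81e+07 to 7.00e+07 UMIs per library. Nuclei were clustered with leidenalg 0.10.2 (15 neighbours, 50 components, 5000 variable genes, the 6 members left out; resolution 1.2 for all nuclei, 2 for neurons). A class needed 3 markers raised 2-fold and in 10% of nuclei, and 60% of its list. These limits, and the 5-UMI limit, were set after seeing the clusters. A cluster led by another class's markers was left under its transmitter genes.

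CPM was computed from summed UMIs. Intervals (95%) are exact Poisson for CPM, Clopper-Pearson for shares, exact conditional for ratios and Newcombe's for differences of shares. A count of 0 allows up to 3 counts. Ratios were computed for genes with at least 50 UMIs over a pair. Equal depth means thinning to 1000 UMIs. From 425 to 1480 shallower nuclei per library dropped out there. No p-value was computed. On simulated counts for the cortex comparison (18649 genes), all 3-fold changes were recovered and 95.4% of intervals held the true ratio. These counts were drawn with counting error only, which the intervals assume, so the run checks the computation alone. It cannot show how the intervals hold under spread between nuclei or libraries, and it did not try 1.5-fold changes.

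The members and gene lists were chosen with earlier results of these data known. The genes named are the members, the 3 genes most like each (over 20 CPM in a cluster; 1 is not reported here), list genes past a fold, cluster-leading genes and markers. List genes named for the region contrast were chosen after their values were seen. Alternatives kept all barcodes or doublets, changed scaling, depth, clustering or gates, or used other limits. Python 3.11.15, numpy 2.4.6, scipy 1.17.1 and pandas 2.3.3 were used.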

Additional observations from a re-analysis of the deposited data

Results flagged for a closer look

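For 3 genes the AAV-VEGF-C over AAV-CTRL ratio had opposite signs under the 2 region labels, and the difference between the labels was not tested, since each ratio rests on 1 library per group. Sst was at −0.058 on the log2 scale under the cortex label and at 0.37 under the striatum label. Vip was at 0.23 under the cortex label and −0.054 under the striatum label, where its interval included 0. Npy was at 0.073 and −0.077, the latter with an interval that included 0.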

How the results depend on the processing

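With 1 library per group none was left out, and 1 library decides every value. No paired analysis was possible because each group has a single library: the region ratios are taken within a pool of mice, and the 2 pools differ in AAV and are not replicates. No ratio past its fold changed sign. Each alternative changed 1 choice, and the cause of a difference was not tested.

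For the AAV ratios (log2), the share of nuclei with a UMI in place of CPM gave, under the cortex label, −0.26 for Sst, −0.034 for Vip, −0.11 for Npy and 0.071 for Cck, and under the striatum label 0.070 for Npy and 0.71 for Tac2, which then passed 1.5-fold. Thinning to 1000 UMIs gave −0.031 for Npy, 0.14 for Cck and −0.30 for Crh under the cortex label and 0.26 for Vip, −0.25 for Npy, 0.10 for Cck and 0.37 for Tac2 under the striatum label. The sign of Vip and Npy ratios thus turned with the measure. Keeping all barcodes or another scaling left all 12 ratios within their intervals. Thinning moved the share of higher genes among those past the fold under the striatum label from 42.3% to 33.2%.

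For the region ratios in AAV-CTRL and AAV-VEGF-C, shares gave −0.87 and −0.27 for Sst, −2.46 and −2.40 for Vip, −2.27 and −2.08 for Npy, −1.38 and −1.23 for Cck, 1.04 for Tac2 in AAV-CTRL and −0.33 for Crh in AAV-VEGF-C, so that Sst lost the 2-fold difference in AAV-CTRL. Thinning gave −1.19 and −0.76 for Sst, −1.80 and −1.84 for Cck, −3.49 for Vip in AAV-CTRL and 1.42 for Tac2 in AAV-VEGF-C. All barcodes gave −1.05 and −0.65 for Sst and −3.27 for Vip in AAV-VEGF-C. Scaling without abundant and mitochondrial genes gave −1.18 for Sst in AAV-CTRL and −1.68 and −1.73 for Cck.

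Allowing the members into the clustering gave Sst at 3609 CPM in Sst-lineage nuclei of cortex AAV-VEGF-C. With doublets kept, Npy was at 718 CPM in Sst-lineage nuclei of cortex AAV-CTRL, Npy at 2211 CPM in Lamp5-lineage and Vip at 1576 CPM in Vip-lineage nuclei of cortex AAV-VEGF-C, with a Vip ratio of 0.10. With GABAergic neurons chosen per nucleus by transmitter genes instead of by cluster, Sst was at 478 and 461 CPM (ratio −0.051), Vip at 94.8 and 115, Npy at 274 and 303 (0.14), Tac2 at 18.8 in AAV-CTRL (−0.19) and Cck at 269.6 CPM in AAV-VEGF-C. In thinned nuclei of cortex AAV-VEGF-C the Crh difference with Vip was 8.79 points. Without a filter 1 receptor gene under each label passed 1.5-fold between AAV groups. The nearest genes by likeness moved for 5 of 6 members with Spearman's rho and for 3 with a pseudocount of 10.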
